A study of Mus musculus with 6 samples.

Results

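The genes of Wnt signalling were followed in RNA-seq of 6 lung cancer mice. In 3 the cancer was treated with artemisinin (here artemisinin replicates 1 to 3), and the other 3 are the model group without it (model replicates 1 to 3). The members were taken by name from the table of read counts. They are every gene numbered in the Wnt, Fzd, Sfrp, Dkk, Rspo, Axin or Nkd families, together with the receptors Lgr4, Lgr5, Lgr6, Lrp5 and Lrp6, the cytoplasmic and nuclear genes Ctnnb1, Apc, Gsk3b, Tcf7, Tcf7l1, Tcf7l2, Lef1 and Sp5, the ligases Rnf43 and Znrf3, and Notum, Apcdd1, Wif1, Porcn and Wls. This gave 63 of the 18238 genes in the table, and the rule itself uses names and no measured value, although it was written with earlier results of these data known. All 6 mice carried lung cancer, and the groups differed by artemisinin, a sesquiterpene lactone with an endoperoxide bridge that is used against malaria. The sources used here do not give how the cancer was made, the tissue piece, strain, age, sex, dose or duration. The labels call each library a mouse but name no separate litters, cages or days, so p-values measure the spread between these 6 libraries.

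Wnt proteins are lipid-modified by Porcn and carried to the cell surface by Wls. They bind a Frizzled receptor together with Lrp5 or Lrp6, which stops the destruction complex of Axin, Apc and Gsk3b from degrading beta-catenin, so that beta-catenin reaches the nucleus and works with the factors Tcf7, Tcf7l1, Tcf7l2 and Lef1. Rnf43 and Znrf3 remove Frizzled receptors from the surface, and R-spondins acting through Lgr4, Lgr5 or Lgr6 hold these ligases back. Sfrp proteins and Wif1 bind Wnts, Dkk1 and Dkk2 bind Lrp5 and Lrp6, and Notum strips the lipid from the ligand. In the lung, Wnt2 and Wnt2b of the mesenchyme are needed for the lung to form, and Wnt signals from fibroblasts maintain a part of the alveolar type 2 cells.

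The libraries held between 25566173 and 34745497 counts, and 3 counts corresponded to 0.0863 to 0.117 CPM, the count scaled to library size. Normalised CPM are also divided by edgeR's TMM factor, which corrects for differences in composition between libraries. Spearman correlations across genes were 0.986 to 0.991 within the model group and 0.945 to 0.967 within the artemisinin group, so the treated libraries varied more. Defining markers of lung epithelium were present in every library. The summed level of 10 alveolar type 2 markers was 7054 to 20709 CPM with artemisinin and 48434 to 69657 CPM in the model, and all 10 had a log2 fold change below 0. The summed level of 8 club cell markers was 23437 to 82451 CPM with artemisinin and 8809.9 to 23062 CPM in the model. Of the 8, 7 had a log2 fold change above 0. Only 1, Scgb1a1, had values that did not overlap between the groups, beside 33.6% of all tested genes. Artemisinin replicate 2 stood apart by its markers of other tissues. The 10 skeletal muscle markers summed to 6446 CPM there and to at most 64 CPM elsewhere, and the 10 keratinocyte markers to 766 CPM against at most 46.5 CPM. Artemisinin replicate 1 held the most RNA of 8 cardiac muscle markers, 1384 CPM against at most 359.6 CPM, and of 8 adipocyte markers, 716 CPM against at most 124 CPM.

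Artemisinin went with lower RNA of Sp5, Rnf43, Tcf7l1 and Apc and with higher RNA of Wnt2. Of these 5, Sp5 differed most, 7.89-fold. Of the 63 members, 55 passed edgeR's filter on low counts (0.303 CPM in enough libraries) and were tested with edgeR's quasi-likelihood test. At a Benjamini-Hochberg adjusted p under 0.05 over all 15242 genes tested, 1 member rose and 4 fell. That is 9.09% of the members tested, beside 4.47% of all genes tested (2.17% higher and 2.30% lower). The median log2 fold change was −0.01 over the 55 members and 0.04 over all tested genes, with 27 members above 0 and 28 below, where 46.8% of all tested genes were below 0. At an unadjusted p under 0.05 there were 17 members, beside 24.7% of all tested genes. In 20 of the 55 members (36.4%) the values of the 2 groups did not overlap, which held for 33.6% of all tested genes. Of these 20, 7 were higher and 13 lower with artemisinin, beside 16.3% and 17.3% of all genes. In bulk tissue, fewer cells of a type and less RNA per cell cannot be told apart.

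**Figure D1:**
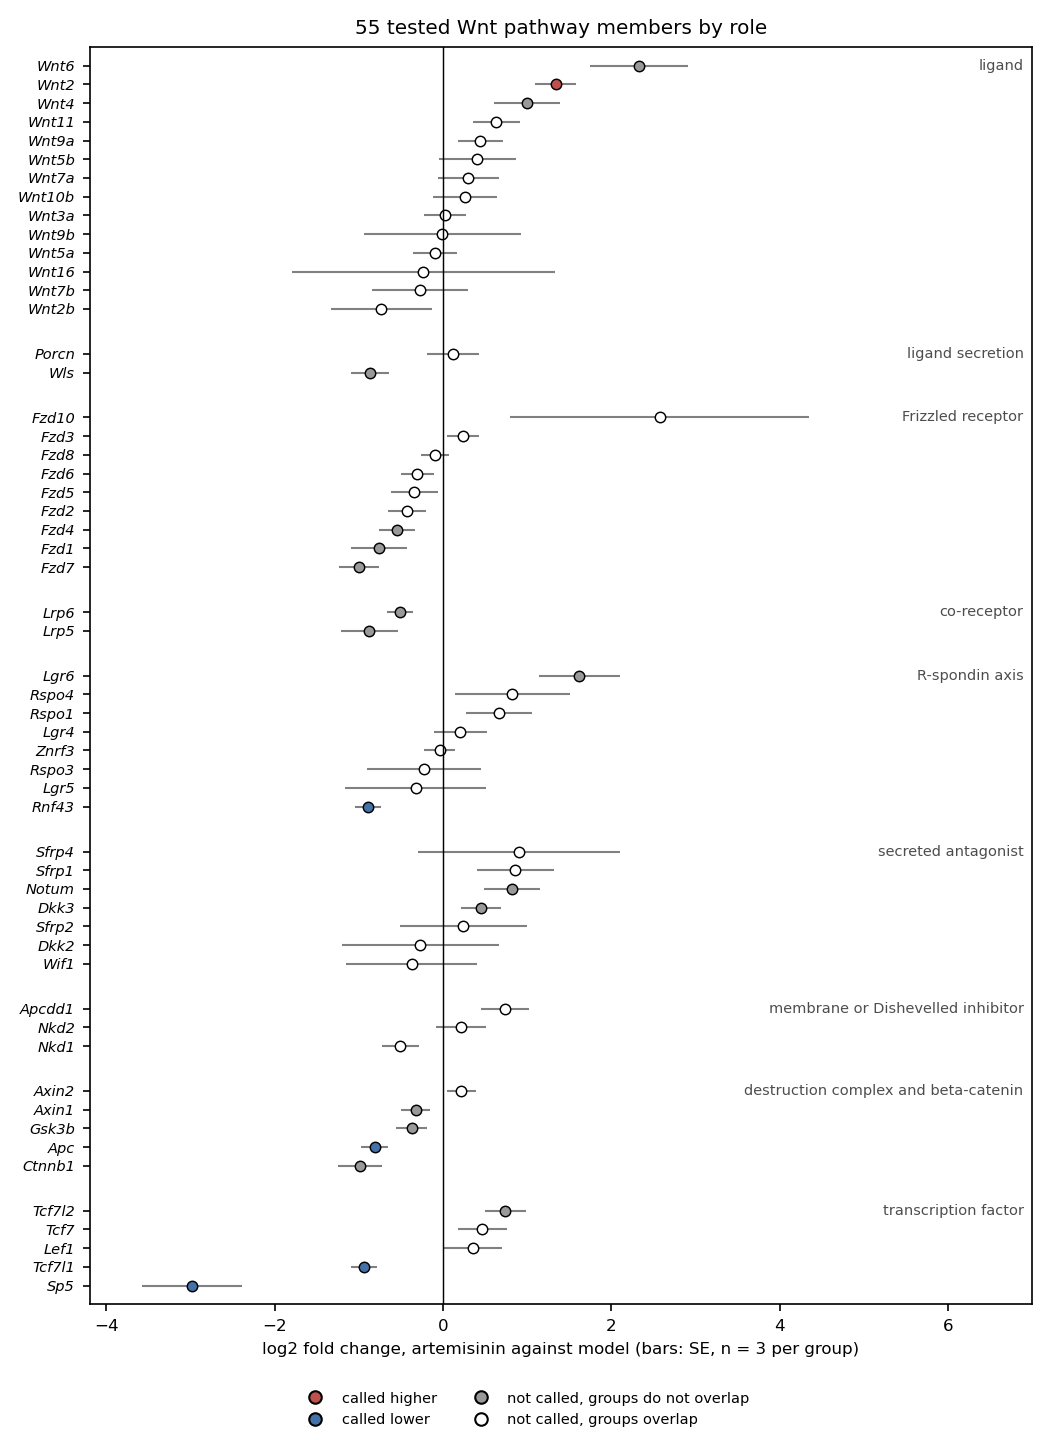
Log2 fold change of artemisinin against model for the 55 tested members, grouped by role, with bars for the standard error (n = 3 mice per group). Filled blue and red points are the 4 members called lower and the 1 called higher, grey points are members that were not called but whose groups do not overlap, and white points are the rest. Sp5 lies farthest to the left at −2.98, and the Frizzled, co-receptor and destruction complex genes lie mostly left of 0.

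Sp5, an Sp-family zinc finger factor that is a direct target of beta-catenin and limits Wnt transcription in turn (chromosome 2, 70474923 to 70477726, GRCm38, protein coding), had 0.369, 1.95 and 1.17 normalised CPM in artemisinin replicates 1, 2 and 3 and 12.3, 8.92 and 6.59 in model replicates 1, 2 and 3. The highest artemisinin value was below the lowest model value. Sp5 fell from a mean of 9.27 ± 2.87 to one of 1.17 ± 0.792 normalised CPM (SD, n = 3 each), 7.89-fold (log2 −2.98 ± 0.59, SE; edgeR adjusted p = 0.0384). Its values rested on 10, 62 and 41 counts with artemisinin and 405, 289 and 209 in the model. Tcf7l1, the TCF factor that mainly represses Wnt targets in the absence of beta-catenin (chromosome 6, 72626371 to 72789045), had 14.8, 19.2 and 16.5 normalised CPM in artemisinin replicates 1, 2 and 3 and 33.9, 31.1 and 32.2 in model replicates 1, 2 and 3. The groups were far apart against their spread. Tcf7l1 fell 1.92-fold (log2 −0.94 ± 0.15, SE; edgeR adjusted p = 0.0252). A non-coding neighbour on the other strand, Gm15401, covers 4.56% of the exonic bases of Tcf7l1 in GENCODE M21.

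Rnf43, the ubiquitin ligase that clears Frizzled receptors from the membrane (chromosome 11, 87663087 to 87735539), had 11.3, 12.2 and 12.3 normalised CPM in artemisinin replicates 1, 2 and 3 and 23, 22.6 and 20.9 in model replicates 1, 2 and 3. All 3 treated mice sat within 1 normalised CPM of each other and below every model mouse. Rnf43 fell 1.86-fold (log2 −0.89 ± 0.15, SE; edgeR adjusted p = 0.028). Apc, the scaffold of the destruction complex and a tumour suppressor (chromosome 18, protein coding), had 103, 139 and 114 normalised CPM in artemisinin replicates 1, 2 and 3 and 199, 198 and 227 in model replicates 1, 2 and 3. No artemisinin value reached the model range. Apc fell 1.76-fold (log2 −0.81 ± 0.16, SE; edgeR adjusted p = 0.0394). Wnt2, a canonical Wnt of lung fibroblasts (chromosome 6, 17985474 to 18032772), moved the other way with 18.7, 22.8 and 32.7 normalised CPM in artemisinin replicates 1, 2 and 3 and 8.56, 11 and 9.8 in model replicates 1, 2 and 3. Each artemisinin value was above the highest model value, and artemisinin replicate 3 was highest. Wnt2 rose 2.53-fold, from a mean of 9.79 ± 1.22 to one of 24.8 ± 7.19 normalised CPM (SD, n = 3 each) (log2 1.34 ± 0.25, SE; edgeR adjusted p = 0.0317).

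The directions of these 5 members did not change with any 1 library left out, but their calls did. Without model replicate 1, 2 or 3 none of the 55 members had an edgeR adjusted p under 0.05, where all genes gave 6, 39 and 8 higher and 11, 79 and 15 lower. The edgeR adjusted p without model replicate 1, 2 or 3 was 0.172, 0.101 and 0.106 for Sp5, 0.132, 0.0997 and 0.113 for Rnf43 and 0.128, 0.0749 and 0.11 for Tcf7l1. For Apc it was 0.149, 0.0965 and 0.172, and for Wnt2 0.153, 0.0964 and 0.13. Without artemisinin replicate 1, Sp5 and Apc had edgeR adjusted p = 0.0517 and 0.0632. Without artemisinin replicate 3, Sp5, Apc and Wnt2 had edgeR adjusted p = 0.0755, 0.0695 and 0.0559. The log2 fold change of Sp5 was −3.56 without artemisinin replicate 2 and −2.57 without artemisinin replicate 1. Without artemisinin replicate 2, the library with muscle and keratinocyte RNA, the 5 calls remained and Ctnnb1, Fzd7, Wls and Lgr6 were called too, which made 2 higher and 7 lower, where all genes gave 670 higher and 713 lower instead of 331 and 351. DESeq2 called 3 higher and 8 lower, adding Ctnnb1, Fzd7, Lgr6, Lrp6, Wls and Wnt6 to the 5, beside 15.1% of all genes it tested (8.14% higher and 6.94% lower). Wnt6 passed the filter on low counts only through the treated libraries, where it is high, so its DESeq2 call is no support.

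The 250 bases before the annotated start are shown for Sp5, Tcf7l1 and Rnf43, which fell together, and for Wnt2, which rose, 5′ to 3′ along the gene's strand. They were taken from RefSeq's GRCm38.p6 promoter windows at chr2:70474673-70474922 (plus strand), chr6:72789046-72789295 (minus strand), chr11:87662837-87663086 (plus strand) and chr6:18030446-18030695 (minus strand). Rnf43 has more than 1 annotated start, and the window of the outermost is shown. The Wnt2 window lies before the start that the table lists, inside the annotated gene. Capitals mark CTTTGAA or CTTTGAT on either strand, the letters that TCF and LEF factors prefer.
Sp5: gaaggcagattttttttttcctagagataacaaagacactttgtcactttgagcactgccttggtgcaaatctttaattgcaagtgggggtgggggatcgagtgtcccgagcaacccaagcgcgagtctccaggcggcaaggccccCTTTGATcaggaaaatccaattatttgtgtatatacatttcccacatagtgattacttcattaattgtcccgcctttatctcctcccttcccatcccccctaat
Tcf7l1: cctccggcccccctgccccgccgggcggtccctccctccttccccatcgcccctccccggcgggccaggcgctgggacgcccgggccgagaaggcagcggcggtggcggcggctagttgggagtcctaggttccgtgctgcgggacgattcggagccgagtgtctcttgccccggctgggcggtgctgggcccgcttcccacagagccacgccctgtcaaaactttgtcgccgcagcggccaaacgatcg
Rnf43: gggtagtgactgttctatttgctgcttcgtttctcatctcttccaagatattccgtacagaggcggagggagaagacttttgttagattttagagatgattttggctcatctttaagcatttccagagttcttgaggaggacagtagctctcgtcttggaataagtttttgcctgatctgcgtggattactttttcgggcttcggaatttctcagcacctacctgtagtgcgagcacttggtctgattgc
Wnt2: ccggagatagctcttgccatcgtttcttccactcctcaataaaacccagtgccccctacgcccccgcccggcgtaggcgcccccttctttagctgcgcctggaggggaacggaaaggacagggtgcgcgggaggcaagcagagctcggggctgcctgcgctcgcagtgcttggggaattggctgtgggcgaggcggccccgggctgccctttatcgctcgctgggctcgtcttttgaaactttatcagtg

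Of the 63 members 42 had a window in the table, and 4 of the 42 held 1 of the motifs, namely Sp5, Dkk1, Wnt11 and Wnt5b. Counted by window, 4 of the members' 52 windows held one (7.69%), beside 7.48% of all 32851 windows. In Sp5 the match, CTTTGAT on the gene's own strand, begins at −104 from the start, and the windows of Tcf7l1, Rnf43 and Wnt2 held no match to these letters. The windows differ in base composition, with a GC content of 46.0% for Sp5, 44.4% for Rnf43, 73.6% for Tcf7l1 and 63.6% for Wnt2, beside a median of 52.4% over all windows. Both Sp5, which holds the match, and Axin2, whose window held none, are textbook beta-catenin targets. The Axin2 window, like that of Wnt2, lies inside the annotated gene and not before its outermost start. Axin2 had 28.4, 30.1 and 37 normalised CPM in artemisinin replicates 1, 2 and 3 and 23.3, 29.7 and 29.1 in model replicates 1, 2 and 3. The groups overlapped and Axin2 was not called (log2 0.22 ± 0.17, SE; edgeR adjusted p = 0.448).

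**Figure D2:**
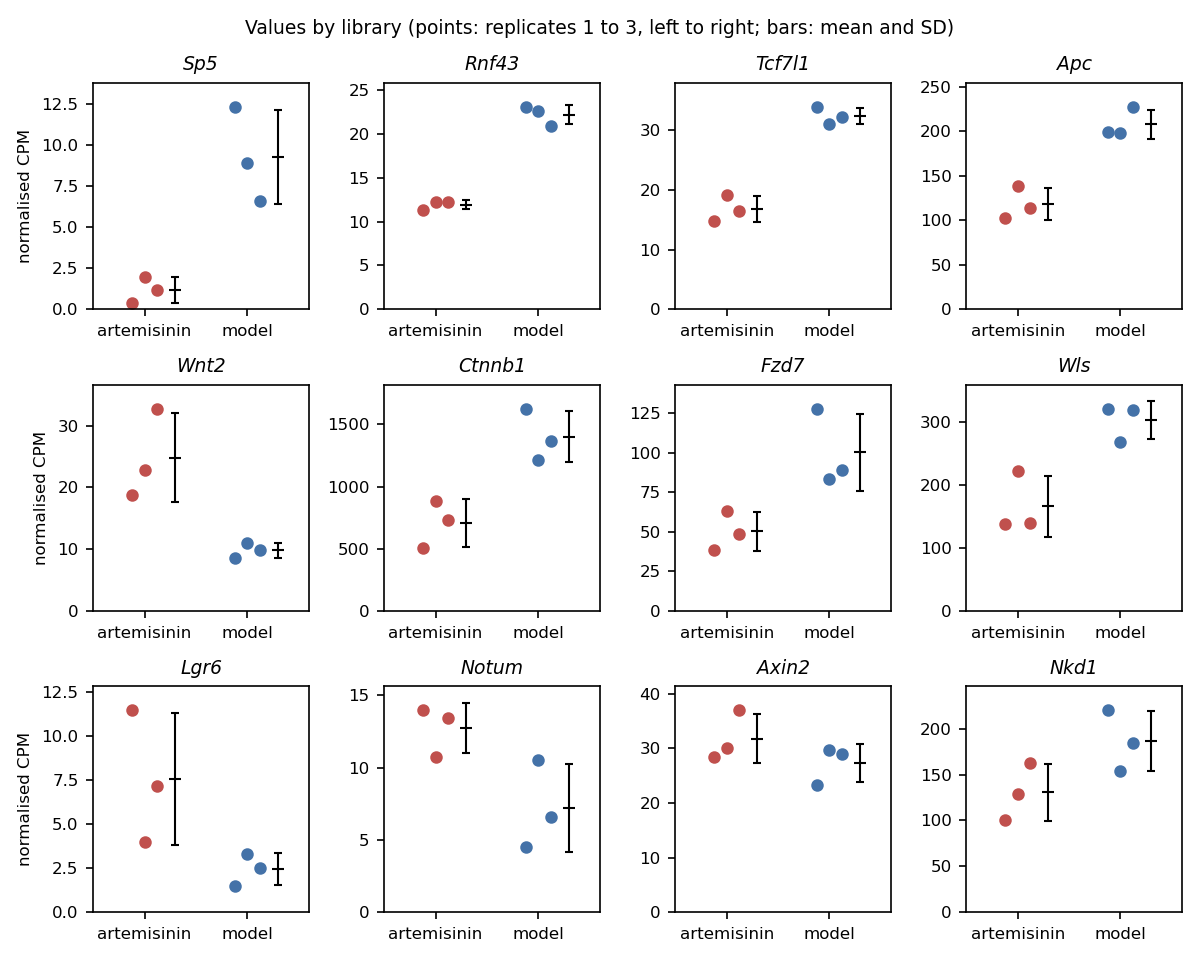
Normalised CPM of 12 members in each mouse, with artemisinin in red and model in blue, replicates 1 to 3 from left to right, and the mean ± SD beside them (n = 3 per group). Axes start at 0 and differ between genes. For Sp5, Rnf43, Tcf7l1, Apc, Ctnnb1, Fzd7 and Wls every artemisinin point is below every model point, for Wnt2, Lgr6 and Notum every artemisinin point is above, and for Axin2 and Nkd1 the groups overlap.

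Taken over all 18 ligand genes, Wnt RNA was higher in the treated mice. The summed level was 48.2, 47.9 and 40.9 FPKM in artemisinin replicates 1, 2 and 3 and 26.6, 32.8 and 31.3 in model replicates 1, 2 and 3, where FPKM are the authors' values scaled to gene length and library size, which allow genes to be compared. The sums did not overlap, and this also held after division by the TMM factors, with 38.8 to 47.9 against 28 to 33.3. Without Wnt2 the sums of the other 17 ligands were 25.7 to 39.5 FPKM with artemisinin and 23 to 28 FPKM in the model, and they overlapped. Wnt2 had 4.16 ± 0.592 FPKM in model mice against 11.3 ± 3.44 FPKM in treated mice. Its rank among the ligands by mean FPKM was 3 in the model and 1 with artemisinin, and its share of the summed ligand FPKM was 13.8% ± 0.684 in model mice against 25.4% ± 10.3 in treated mice (SD, n = 3 each). The shares of Wnt2 did not overlap between the groups. Sums and shares were not tested.

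In the model the highest ligand by FPKM was Wnt7a, a Wnt of lung epithelium, at 4.98 ± 0.732 FPKM (SD, n = 3). Wnt10b and Wnt2 followed at 4.86 ± 1.32 and 4.16 ± 0.592 FPKM, and then Wnt3a and Wnt11 at 3.6 ± 0.309 and 3.25 ± 0.854 FPKM. Neighbours in this order lay within their SDs of each other. Wnt7a had 23.4, 28.3 and 9.9 normalised CPM in artemisinin replicates 1, 2 and 3 and 14.7, 19 and 16.3 in model replicates 1, 2 and 3. Artemisinin replicate 3 was lowest and replicate 2 highest of the 6, and the gene was not called (log2 0.30 ± 0.36, SE; edgeR adjusted p = 0.628). Wnt3a, a strong activator of beta-catenin, had 10.3, 13.3 and 7.79 with artemisinin and 9.53, 10.2 and 11.2 normalised CPM in the model. The treated mice lay on both sides of the model mice (log2 0.02 ± 0.25, SE; edgeR adjusted p = 0.962). Wnt5a, the main ligand of the beta-catenin-independent branch, had 17.6, 23.9 and 16.4 with artemisinin and 27.9, 18.5 and 15.7 normalised CPM in the model. Those groups overlapped too (log2 −0.10 ± 0.26, SE; edgeR adjusted p = 0.836). Wnt11, also mostly beta-catenin-independent, had 14.4, 9.01 and 11.5 with artemisinin and 5.65, 9.33 and 7.5 normalised CPM in the model. Model replicate 2 was above artemisinin replicate 2, so the groups overlapped (log2 0.63 ± 0.28, SE; edgeR adjusted p = 0.218).

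**Figure D3:**
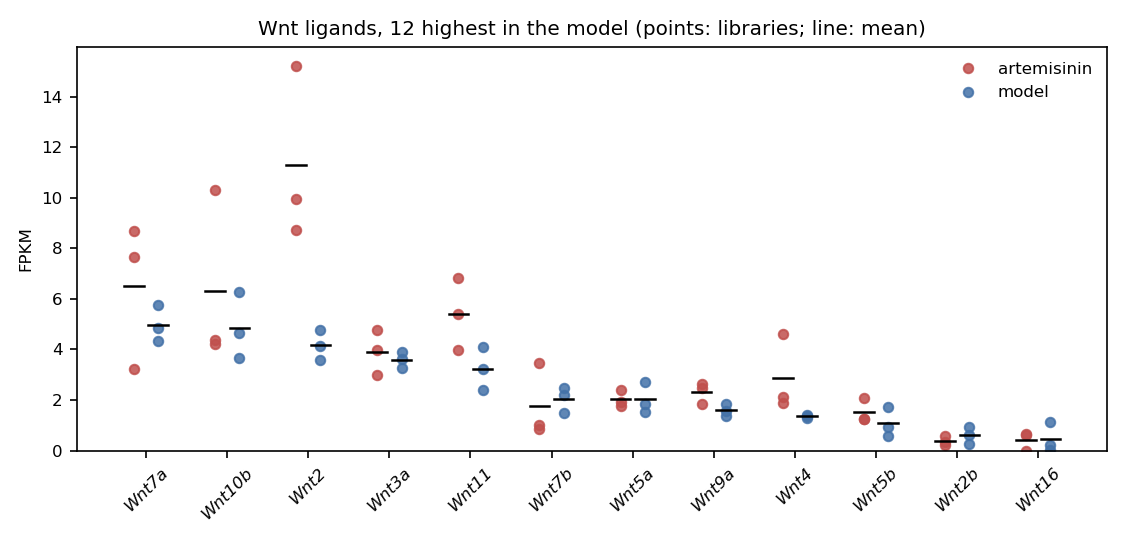
FPKM of the 12 ligands with the highest model mean, with artemisinin in red, model in blue, 1 point per mouse and a line at the group mean (n = 3 per group). The 3 artemisinin points of Wnt2 lie above its 3 model points, and for Wnt7a, Wnt10b and Wnt3a the points of both groups mix.

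Some ligands of low level had separate groups. Wnt6, an epithelial Wnt, had 1.63, 1.32 and 0.687 normalised CPM in artemisinin replicates 1, 2 and 3 and 0.182, 0.247 and 0.284 in model replicates 1, 2 and 3. Every treated mouse was above every model mouse. It missed the threshold (log2 2.33 ± 0.59, SE; edgeR adjusted p = 0.0717) and rested on 44, 42 and 24 counts with artemisinin and 6, 8 and 9 in the model. It passed the expression filter through the artemisinin libraries alone. Wnt4, which signals in epithelium and mesenchyme of many organs, had 7.72, 17.8 and 6.81 normalised CPM in artemisinin replicates 1, 2 and 3 and 5.53, 5.53 and 5.17 in model replicates 1, 2 and 3. The model mice were nearly equal and artemisinin replicate 2 was far above the rest (log2 0.99 ± 0.39, SE; edgeR adjusted p = 0.179). Wnt10a, an ectodermal Wnt, was outside the filter with 6, 30 and 23 counts with artemisinin and 2, 0 and 0 in the model. The ratio of rates, from counts pooled within each group, was 32.7, and its exact (binomial) 95% limits for counting error alone were 8.67 and 277. These limits were worked out for Wnt10a because its counts were few in the model and not with artemisinin. They leave out the spread between mice and are no support for a difference. Wnt4 and Wnt10a were highest in artemisinin replicate 2, where the keratinocyte markers stood at 766 CPM. Wnt10a was 0.934 CPM there and 0.694 CPM in artemisinin replicate 3. In replicate 3 the keratinocyte markers stood at 21.5 CPM, the lowest of the 6 libraries. The part of keratinocytes in both genes was not tested. Wnt7b, an epithelial Wnt of the lung, had 4.14, 15.5 and 3.61 normalised CPM in artemisinin replicates 1, 2 and 3 and 11.4, 9.88 and 6.84 in model replicates 1, 2 and 3. Artemisinin replicate 2 was the highest and replicates 1 and 3 were the lowest of the 6 (log2 −0.28 ± 0.57, SE; edgeR adjusted p = 0.782). Wnt10b was led by artemisinin replicate 1 at 32.5 normalised CPM, against 12.8 to 21.8 in the other 5 libraries. Wnt9a had 5.61 ± 0.77 normalised CPM in model mice against 7.62 ± 1.44 in treated mice. Wnt5b, Wnt2b and Wnt16 were below 7 normalised CPM in every library, and Wnt9b was below 1. Wnt1, Wnt3 and Wnt8b had at most 4 counts in any library.

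Receptor RNA was lower in the treated mice when summed, although edgeR called no Frizzled or Lrp gene. DESeq2 called Fzd7 and Lrp6 lower. The 10 Frizzled genes summed to 50.8, 75.9 and 72.7 FPKM in artemisinin replicates 1, 2 and 3 and 91.2, 91 and 92.3 in model replicates 1, 2 and 3. The model libraries were almost equal, and all 3 artemisinin libraries were below them. Of the 9 Frizzled genes tested, 7 had a log2 fold change below 0, beside 46.8% of all tested genes. Fzd8 among these 7 turned to 0.01 with scaling by library totals. The groups of Fzd1, Fzd4 and Fzd7 did not overlap, all 3 lower with artemisinin. That is 33.3% of the 9 tested, beside 33.6% of all tested genes in either direction and 17.3% lower. Fzd7, a receptor for canonical Wnts, had 20.0 ± 4.5 FPKM in model mice against 10.7 ± 2.26 FPKM in treated mice (SD, n = 3 each). Its model mean was the highest of the family but within its SD of those of Fzd4 and Fzd1. It had 38.8, 63.5 and 48.5 normalised CPM in artemisinin replicates 1, 2 and 3 and 128, 83.5 and 89.3 in model replicates 1, 2 and 3. Model replicate 1 was the highest and every artemisinin value was lower (log2 −1.0 ± 0.24, SE; edgeR adjusted p = 0.0618). Fzd1 had 25, 66.2 and 63.1 with artemisinin and 89, 87.4 and 84.7 normalised CPM in the model. Artemisinin replicate 1 was far below the other 2 treated mice (log2 −0.76 ± 0.34, SE; edgeR adjusted p = 0.215). Fzd4, which also serves the ligand Norrin in blood vessels, had 71.6, 113 and 112 with artemisinin and 128, 142 and 163 normalised CPM in the model. Again artemisinin replicate 1 was lowest (log2 −0.55 ± 0.21, SE; edgeR adjusted p = 0.168).

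The other Frizzled genes had overlapping groups. Fzd6 had 67.8 ± 6.19 normalised CPM in model mice against 54.9 ± 13.9 in treated mice, and Fzd5 41.5 ± 4.32 and 32.7 ± 13.3 (SD, n = 3 each). Fzd8 was nearly level, at 15.6 ± 1.68 and 14.6 ± 0.421. Fzd2 and Fzd3 had log2 fold changes of −0.43 ± 0.22 and 0.24 ± 0.19 (SE). Fzd10 had 4, 119 and 0 counts with artemisinin and 11, 10 and 0 in the model, so that 1 treated library held nearly all of the treated counts and the fitted log2 fold change of 2.58 ± 1.78 (SE) turned to −1.59 without it. Fzd9 had at most 9 counts in a library and was not tested.

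Both co-receptors that pair with Frizzled had lower values in every treated mouse than in any model mouse, and edgeR called neither. Such lower, separate groups held for 17.3% of all tested genes. Lrp5 had 50.7, 120.3 and 135 normalised CPM in artemisinin replicates 1, 2 and 3 and 212, 175 and 174 in model replicates 1, 2 and 3. Artemisinin replicate 1 was lowest by a wide margin (log2 −0.88 ± 0.34, SE; edgeR adjusted p = 0.174). Lrp6 had 92.6, 128 and 121 normalised CPM in artemisinin replicates 1, 2 and 3 and 161, 163 and 163 in model replicates 1, 2 and 3. The model mice lay within 2 normalised CPM (log2 −0.51 ± 0.16, SE; edgeR adjusted p = 0.114). Wls, the carrier that escorts Wnts to the cell surface, had 137, 222 and 139 normalised CPM in artemisinin replicates 1, 2 and 3 and 320.5, 268 and 319 in model replicates 1, 2 and 3. The highest treated value was below the lowest model value (log2 −0.87 ± 0.23, SE; edgeR adjusted p = 0.0776). Porcn, the acyltransferase that adds the lipid, had 42.8, 22.7 and 20.1 with artemisinin and 32.5, 24.3 and 22.2 normalised CPM in the model. Replicate 1 was the highest in each group and the groups overlapped (log2 0.12 ± 0.31, SE; edgeR adjusted p = 0.836).

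Among R-spondins and their receptors the directions were mixed. Lgr6, an R-spondin receptor, had 11.5, 4.0 and 7.19 normalised CPM in artemisinin replicates 1, 2 and 3 and 1.52, 3.33 and 2.49 in model replicates 1, 2 and 3. Every artemisinin value was above every model value, by the least in artemisinin replicate 2, and the gene was not called (log2 1.62 ± 0.48, SE; edgeR adjusted p = 0.104). Without that library it was called (log2 1.92, edgeR adjusted p = 0.0437). The 9 smooth muscle markers summed to 1168 to 1965 CPM with artemisinin and 286 to 448 CPM in the model, none of them at 0. Of these 9, 8 were called higher, beside 2.17% of all tested genes. Among the treated mice the orders differed, as Lgr6 was lowest in replicate 2 and the smooth muscle sum in replicate 3. Sums of several other lists had the treated order of Lgr6, among them club, ciliated, cardiac muscle and adipocyte markers. The part of smooth muscle or of these other cells in the Lgr6 values was not tested. Lgr4, the most abundant of the 3 receptors by FPKM, had 1.74 ± 0.222 FPKM in model mice against 2.13 ± 0.792 FPKM in treated mice (SD, n = 3 each). Lgr5, the stem cell marker of the gut, stayed below 1 normalised CPM in all 6 libraries, and it passed the filter in 3 of them. Rspo1 had 16.1, 10.6 and 6.13 with artemisinin and 4.83, 8.31 and 7.47 normalised CPM in the model. Artemisinin replicate 3 lay inside the model range (log2 0.67 ± 0.39, SE; edgeR adjusted p = 0.326). Rspo3 had 1.07, 1.95 and 0.401 with artemisinin and 0.698, 1.7 and 1.61 normalised CPM in the model, with no separation of the groups (log2 −0.23 ± 0.68, SE; edgeR adjusted p = 0.853). Rspo4 had 0.796 ± 0.451 normalised CPM in model mice against 1.41 ± 0.836 in treated mice, and Rspo2 had at most 4 counts in a library. Znrf3, the paralog of Rnf43 with the same task, had 19.2, 23.8 and 19.3 with artemisinin and 17.4, 22.5 and 24 normalised CPM in the model. Unlike those of Rnf43, its groups overlapped (log2 −0.04 ± 0.19, SE; edgeR adjusted p = 0.91). The difference between the ligases was not tested.

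No secreted antagonist was called. Dkk3, grouped here by its Dickkopf family name and not by a shown action on Lrp5 or Lrp6, was the most abundant of them. Its mean was 14.5 ± 4.53 FPKM in model mice against 21.3 ± 2.04 FPKM in treated mice (SD, n = 3 each). It had 66.7, 74.7 and 80.2 normalised CPM in artemisinin replicates 1, 2 and 3 and 35.3, 60.6 and 65.9 in model replicates 1, 2 and 3. The groups did not overlap, with a gap of under 1 normalised CPM between artemisinin replicate 1 and model replicate 3 (log2 0.45 ± 0.24, SE; edgeR adjusted p = 0.274). Notum, the enzyme that removes the lipid of Wnts and itself a target of the pathway, had 14, 10.7 and 13.4 normalised CPM in artemisinin replicates 1, 2 and 3 and 4.49, 10.5 and 6.62 in model replicates 1, 2 and 3. The lowest treated value was just above the highest model value (log2 0.82 ± 0.33, SE; edgeR adjusted p = 0.186). Antisense transcripts cover 38.1% of the exonic bases of Notum in GENCODE M21, and the sources used here do not say whether the counting used strand, so reads of Notum and those transcripts cannot be told apart. Wif1, the secreted Wnt inhibitory factor, had 20.8, 11.5 and 14.1 normalised CPM in artemisinin replicates 1, 2 and 3 and 4.46, 9.02 and 46.7 in model replicates 1, 2 and 3. Model replicate 3 alone was high, and the log2 fold change was 1.2 without it against −0.37 with it.

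Several Sfrp genes were highest or lowest in a single treated mouse. Sfrp1 had 12.3, 30.9 and 11 normalised CPM in artemisinin replicates 1, 2 and 3 and 12.2, 11.4 and 6.21 in model replicates 1, 2 and 3. Artemisinin replicate 2 was the highest (log2 0.86 ± 0.45, SE; edgeR adjusted p = 0.28). Sfrp4 had 0.48, 6.43 and 0.115 with artemisinin and 1.15, 1.39 and 1.2 normalised CPM in the model. The same library was the highest, while replicates 1 and 3 were below all model mice, and the log2 fold change of 0.91 turned to −2.09 without artemisinin replicate 2. Sfrp2 had 6.91, 7.88 and 0.658 with artemisinin and 3.34, 4.88 and 4.82 normalised CPM in the model. Here artemisinin replicate 3 was the lowest of the 6. Sfrp5 was outside the filter with 31, 27 and 10 counts with artemisinin and 7, 5 and 4 in the model. Dkk2 had 2.66, 8.19 and 0.544 with artemisinin and 8.84, 2.01 and 2.87 normalised CPM in the model, spread widely in both groups (log2 −0.27 ± 0.93, SE; edgeR adjusted p = 0.875). Dkk1 had 11 counts in artemisinin replicate 1 and none in the other 5 libraries, where a count of 0 allows up to 0.0863 to 0.0934 CPM for counting error.

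The destruction complex and beta-catenin had 4 of 5 members below 0, beside 46.8% of all tested genes. Apc alone was called, beside 2.30% of all tested genes called lower. Ctnnb1, which encodes beta-catenin, was the most abundant member, with 372 ± 48.8 FPKM in model mice against 201 ± 48 FPKM in treated mice (SD, n = 3 each). It had 507, 887 and 728 normalised CPM in artemisinin replicates 1, 2 and 3 and 1627, 1215 and 1367 in model replicates 1, 2 and 3. Every treated mouse was below every model mouse, and artemisinin replicate 1 was lowest (log2 −0.99 ± 0.26, SE; edgeR adjusted p = 0.0776). Without artemisinin replicate 2, Ctnnb1 was called (log2 −1.19, edgeR adjusted p = 0.0443). Beta-catenin also links cadherins at epithelial junctions, so its RNA is not a readout of Wnt signalling alone. Exons on the other strand, where Ulk4 lies, cover 14.6% of its exonic bases. Gsk3b, the kinase that marks beta-catenin for degradation, had 82.1, 121 and 118 with artemisinin and 124, 139 and 152 normalised CPM in the model. The gap between artemisinin replicate 2 and model replicate 1 was small (log2 −0.37 ± 0.19, SE; edgeR adjusted p = 0.258). Axin1, the limiting scaffold, had 38.5, 56.9 and 57.7 with artemisinin and 64.5, 64 and 63.3 normalised CPM in the model. The groups did not overlap, and artemisinin replicate 1 was well below the other 5 libraries (log2 −0.32 ± 0.18, SE; edgeR adjusted p = 0.291).

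Of the other transcription factors, Tcf7l2, the main TCF of many epithelia, had 37.5, 23.9 and 23.5 normalised CPM in artemisinin replicates 1, 2 and 3 and 20.0, 13.8 and 17 in model replicates 1, 2 and 3. The treated values were all above the model values, the reverse of Tcf7l1, and the gene was not called (log2 0.74 ± 0.24, SE; edgeR adjusted p = 0.126). By FPKM, Tcf7l1 held 19.1% ± 1.44 in model mice against 11.4% ± 4.11 in treated mice (SD, n = 3 each) of the summed level of Tcf7, Tcf7l1, Tcf7l2, Lef1 and Sp5, and Tcf7l2 held 16.4% ± 2.91 in model mice against 30.5% ± 7.62 in treated mice (SD, n = 3 each). Neither pair of shares overlapped between the groups. The sum includes Sp5, whose share was 26.6% ± 6.48 in model mice against 4.16% ± 3.61 in treated mice. A lower Sp5 by itself raises the shares of the other genes. Tcf7, which is also a T cell factor, had 60.9, 36 and 79.6 with artemisinin and 32.9, 48.1 and 46.5 normalised CPM in the model. Lef1, likewise expressed in lymphocytes, had 17.4, 8.79 and 21.3 with artemisinin and 11, 15.6 and 10.4 normalised CPM in the model. In both genes artemisinin replicate 3 was the highest and the groups overlapped, with edgeR adjusted p = 0.356 for Tcf7 and 0.541 for Lef1. The 7 T cell markers, none at 0, also peaked there, at 234 CPM against 82.7 to 140.1 CPM in the other libraries, with artemisinin replicate 2 second lowest, and the part of T cells in Tcf7 and Lef1 was not tested.

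Genes that serve as readouts of beta-catenin activity had fold changes in both directions. Of 10 such members (Axin2, Nkd1, Lgr5, Sp5, Notum, Rnf43, Znrf3, Lef1, Tcf7 and Apcdd1), 2 fell, Sp5 and Rnf43, and 0 rose at an edgeR adjusted p under 0.05, beside 2.30% lower and 2.17% higher of all tested genes. Of the 10, 5 had a log2 fold change above 0 and 5 below, and Znrf3 turned positive with scaling by library totals. The median was 0.09, beside 0.04 for all tested genes, with a range from −2.98 for Sp5 to 0.82 for Notum. Nkd1, a Dishevelled-binding inhibitor and the most abundant readout by FPKM, had 101, 129 and 163 normalised CPM in artemisinin replicates 1, 2 and 3 and 219.9, 154 and 184 in model replicates 1, 2 and 3. Artemisinin replicate 3 was above model replicate 2 (log2 −0.51 ± 0.22, SE; edgeR adjusted p = 0.207). Apcdd1, a membrane inhibitor of the pathway, had 11.3, 14.7 and 19 with artemisinin and 7.92, 11.9 and 7.25 normalised CPM in the model. Artemisinin replicate 1 was below model replicate 2 (log2 0.73 ± 0.29, SE; edgeR adjusted p = 0.176). Nkd2, the paralog of Nkd1, had overlapping groups (log2 0.21 ± 0.30, SE; edgeR adjusted p = 0.676).

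Single libraries led different members. Artemisinin replicate 2 held the highest value of 13 of the 55 tested members, or 23.6%, beside 14.8% of all tested genes. It led Wnt4, Wnt7b, Fzd10, Sfrp1 and Sfrp4, and its skeletal muscle and keratinocyte markers were the highest. Artemisinin replicate 1 led 10 members, 18.2% beside 29.6% of all genes, and was the lowest of the 6 for 16, among them Fzd1, Lrp5, Ctnnb1 and Axin1. Its club cell markers summed to 82451 CPM, the highest of all. Model replicate 1 led 13 members, 23.6% beside 20.3% of all genes, and was also the lowest for 16. The share of all genes lowest in each library was not counted, so these counts of lowest members have no background. Model replicate 2 led 1 member, 1.82% beside 7.69% of all genes.

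**Figure D4:**
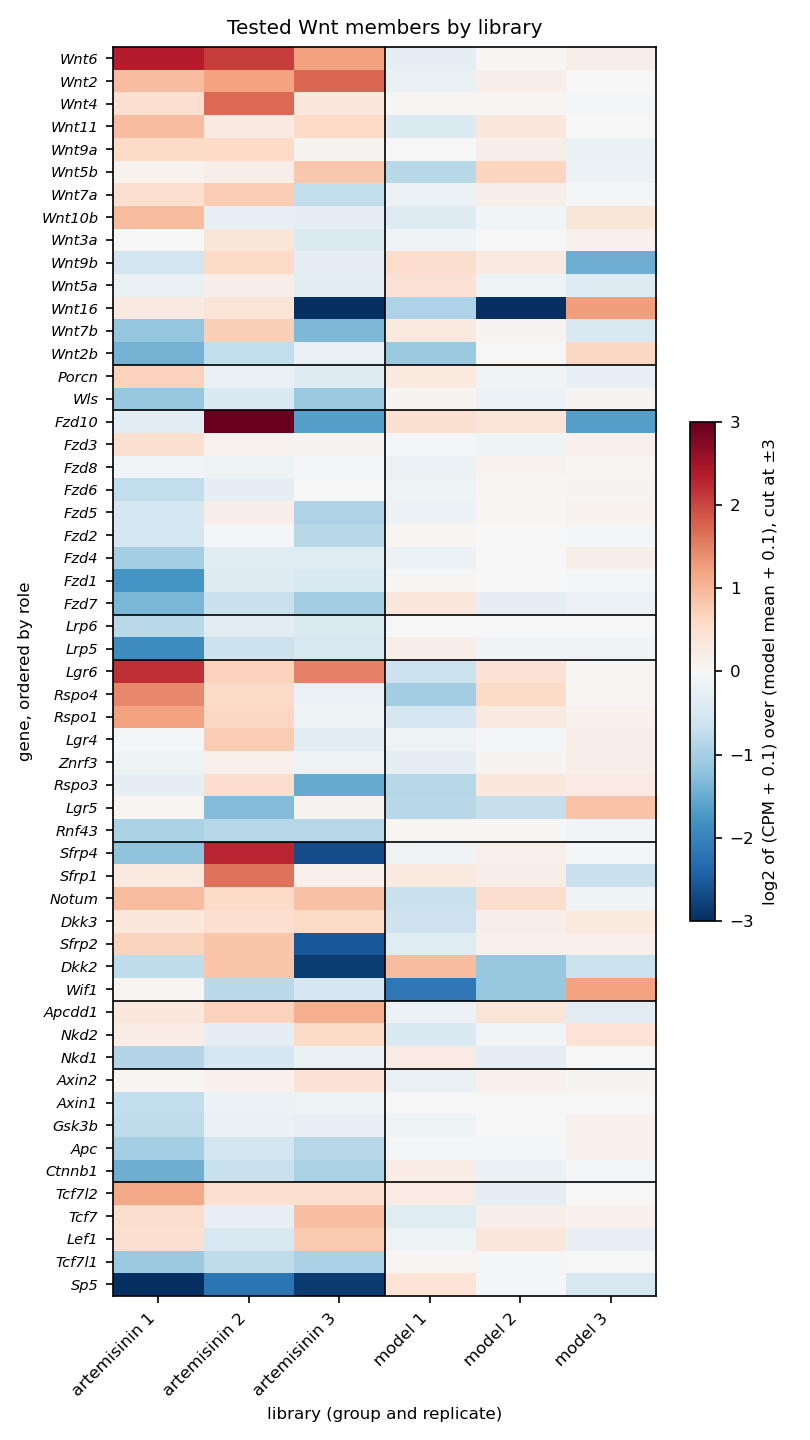
Each of the 55 tested members in each mouse, as log2 of (normalised CPM + 0.1) over (model mean + 0.1), ordered by role with lines between roles and colours cut at ±3. Sp5 is dark blue in all 3 artemisinin libraries and Wnt2 red in all 3, while Fzd10, Sfrp4 and Sfrp1 are red in artemisinin replicate 2.

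Other genes of the pathway were taken from a list chosen by function. Of 71 tested genes of that list, 1 rose and 5 fell, 8.45% beside 4.47% of all tested genes, and the median log2 fold change was −0.08. Celsr1, an atypical cadherin of planar cell polarity, had 36.2, 42.2 and 34.4 with artemisinin and 96.8, 81.1 and 86.1 normalised CPM in the model. The groups were well apart, and Celsr1 fell 2.34-fold (log2 −1.23 ± 0.14, SE; edgeR adjusted p = 0.0118). Ror1, a receptor tyrosine kinase for Wnt5a, had 5.73, 7.66 and 6.78 with artemisinin and 28.7, 17.7 and 17.1 normalised CPM in the model. It fell 3.14-fold (log2 −1.65 ± 0.26, SE; edgeR adjusted p = 0.0245). Pygo1, a nuclear partner of beta-catenin, fell 2.59-fold (log2 −1.37 ± 0.23, SE; edgeR adjusted p = 0.0269). Sox4 and Bambi, which Wnt signalling can induce, fell 2.0-fold and 2.23-fold (log2 −1.0 ± 0.14, SE; edgeR adjusted p = 0.0194, and log2 −1.16 ± 0.18, SE; edgeR adjusted p = 0.0226). Dact3, a Dishevelled-binding antagonist, had 36.5, 24.8 and 23.6 with artemisinin and 10.2, 12.8 and 15.3 normalised CPM in the model. It rose 2.22-fold (log2 1.15 ± 0.24, SE; edgeR adjusted p = 0.0449). Of these 6 genes, Celsr1, Sox4 and Bambi were still called without model replicate 2 (edgeR adjusted p = 0.0388, 0.0494 and 0.0494). No gene of the list was called without model replicate 1 or 3.

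Markers of several cell types differed between the same libraries as the members called. Of the 10 alveolar type 2 markers 6 were called lower, beside 2.30% of all tested genes. All 10 had separate groups and were lower, beside 17.3% of all tested genes. The 12 fibroblast markers, none called, summed to 2357 to 4414 CPM with artemisinin and 1917 to 2278 CPM in the model, without overlap. The 9 neutrophil markers summed to 821 to 5106 CPM with artemisinin and 109 to 169 CPM in the model. Of these 9, 6 were called higher, beside 2.17% of all tested genes. The 10 alveolar type 1 markers summed to 5093 to 8082 CPM with artemisinin and 4974 to 6914 CPM in the model, and the 10 endothelial markers to 2244 to 5094 CPM with artemisinin and 2289 to 4075 CPM in the model, both with overlap and no marker called. No marker of these 5 lists was at 0 in any library. Between the groups, Sp5, Rnf43, Tcf7l1 and Apc were lower where alveolar type 2 markers were lower. Wnt2 was higher where fibroblast and smooth muscle markers were higher. The club, neutrophil, cardiac muscle, adipocyte and skeletal muscle sums were also higher there without overlap. Within the groups the orders matched in part. Among the treated mice Wnt2 was highest in replicate 3, where the smooth muscle sum was lowest. It was lowest in replicate 1, as was the fibroblast sum, which peaked in replicate 2. The neutrophil and endothelial sums had the treated order of Wnt2, the neutrophil sum with 821, 1094 and 5106 CPM in replicates 1, 2 and 3. Sp5, Rnf43, Tcf7l1 and Apc were lowest in replicate 1, while the alveolar type 2 sum was lowest in replicate 3. That sum peaked in replicate 2, as did Sp5, Tcf7l1 and Apc but not Rnf43. In the model, replicate 1 had the highest alveolar type 2 sum, Sp5, Rnf43 and Tcf7l1, but not Apc. Wnt2 and the fibroblast and smooth muscle sums were there lowest in replicate 1 and highest in replicate 2. Several other sums had that order too, among them club, cardiac muscle and T cell markers, while the neutrophil sum peaked in replicate 3. The part of these cell types in the 5 results was not tested.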

How the data were processed

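RNA from 6 mice was sequenced. Extraction used a mirVana kit and library preparation a stranded TruSeq mRNA kit, per the labels' protocols. Per the submitters' processing notes the build was GRCm38 (mm10). Which aligner, counter, annotation and strand setting were used was not given in the sources used here. Deposited were raw read counts by gene and the authors' FPKM. The deposited FPKM were those counts divided by library total and a value per gene (largest relative gap 5.26e-07 over 15462 genes) and add no separate evidence. No column of values belonged to another sample.

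The main test on the counts was that of edgeR 4.0.16, run in R 4.3.3 (filterByExpr with its minimum count of 10, TMM, robust quasi-likelihood fit, Benjamini-Hochberg over 15242 genes, threshold 0.05). A standard error is the log2 fold change over the root of F. For normalised CPM the counts were scaled to library total times TMM factor (0.948 to 1.06), and untested genes and marker sums are CPM of the plain total. Replicate groups of 3 cannot go below an exact two-sided permutation p of 0.1, so p-values rest on the spread shared across genes. The 3 replicate numbers did not pair the mice. Alternatives were DESeq2 1.42.0, limma 3.58.1 (voom, and trend on log2(FPKM + 0.1) or log2(FPKM + 1) for a mean FPKM of at least 0.5), other scalings, no filter, a replicate block and leaving out each library. Coordinates and promoter windows are RefSeq's for GRCm38.p6, matched by Entrez number for 63 of 63 members, and overlaps are from GENCODE M21.

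The lists, like the members, were chosen with earlier results of these data known. Values in every library were given for members called, for members with a mean of at least 1 normalised CPM and groups that do not overlap, and for a fixed set of ligands, antagonists and targets, and the called genes of the other pathway list were named.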

Additional observations from a re-analysis of the deposited data

How the results depend on the processing

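Members called higher and lower were 1 and 4 in edgeR, 3 and 8 in DESeq2, and 0 and 0 under the replicate block. With 1 library left out they ranged over 0 to 2 higher and 0 to 7 lower. For the other pathway genes the counts were 1 and 5, 3 and 8 in DESeq2, 0 higher in limma-voom, 0 and 1 with the block, and 0 to 2 and 0 to 6 with 1 library left out. Over all genes they were 331 and 351, 1234 and 1052 in DESeq2, 65 and 63 with the block, and 6 to 670 and 11 to 713 with 1 library left out. Deviations of same-numbered mice from their group means correlated at −0.00395, −0.103 and 0.0303 for replicates 1, 2 and 3, so the samples share only a number. With the replicate block no member was called, and the edgeR adjusted p was 0.0917 for Sp5, 0.0878 for Rnf43, 0.0729 for Tcf7l1, 0.0896 for Apc and 0.0623 for Wnt2. Tcf7l1 had a limma adjusted p of 0.0505 on log2(FPKM + 0.1) and 0.0546 on log2(FPKM + 1), and Dact3 0.0534 in limma-voom. Scaling by library totals took the all-gene median (log2) from 0.04 to 0.15 and the split of calls from 331 against 351 to 464 against 319. The cause was not tested. 

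The log2 fold changes of members that were not called changed sign as follows. With scaling by library totals, they were 0.0111 for Fzd8, 0.00742 for Wnt5a, 0.0836 for Wnt9b and 0.0644 for Znrf3. In limma-voom, they were −0.47 for Sfrp2, −0.79 for Sfrp4, 0.28 for Wif1, −0.0184 for Wnt3a and 0.38 for Wnt9b. On log2(FPKM + 0.1), they were 0.0104 for Fzd8, −0.20 for Sfrp2, −0.32 for Sfrp4, 0.37 for Wif1, 0.0253 for Wnt5a and 0.0666 for Znrf3. On log2(FPKM + 1), they were 0.00796 for Fzd8, 0.25 for Wif1, 0.0125 for Wnt5a and 0.0482 for Znrf3. With the replicate block, they were −0.20 for Sfrp2, −0.71 for Sfrp4, 0.27 for Wif1, 0.78 for Wnt16, −0.00671 for Wnt3a and 0.23 for Wnt9b. With 1 library left out the values ranged from −1.53 to 0.64 for Dkk2, −1.59 to 3.1 for Fzd10, −0.18 to 0.37 for Lgr4, −0.67 to 0.65 for Lgr5, −0.0452 to 0.48 for Nkd2, −0.30 to 0.29 for Porcn, −0.87 to 0.14 for Rspo3, −0.21 to 0.73 for Sfrp2, −2.09 to 1.41 for Sfrp4, −0.85 to 1.2 for Wif1, −0.26 to 0.49 for Wnt10b, −0.85 to 1.72 for Wnt16, −0.19 to 0.15 for Wnt3a, −0.28 to 0.18 for Wnt5a, −0.00786 to 0.59 for Wnt7a, −1.28 to 0.0234 for Wnt7b, −0.59 to 0.49 for Wnt9b and −0.17 to 0.0539 for Znrf3. The 5 called members kept their direction in all 14 alternatives. Depth limits Wnt1, Wnt3, Wnt8b, Rspo2, Dkk1 and Fzd9, which held at most 11 counts in a library.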

Other observations

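Further genes of the pathway list, chosen after their values were seen, had separate groups without a call. Of the 71 tested genes of that list, 27 (38%) had separate groups, 9 higher and 18 lower, beside 33.6% of all tested genes. Among its 14 tested targets, 5 were separate and lower and 3 separate and higher. Those 3 were Myc, Ccn5 and Tnfrsf19 (log2 0.39, 0.60 and 0.66, not called). Ror2, the second Ror receptor of Wnt5a, had 4.58, 5.48 and 4.58 normalised CPM in artemisinin replicates 1, 2 and 3 and 1.85, 2.38 and 1.61 in model replicates 1, 2 and 3. Ror1, by contrast, fell, and the difference between the receptors was not tested (log2 1.33 ± 0.33, SE; edgeR adjusted p = 0.0702 for Ror2). Celsr3, a paralog of Celsr1, had 4.66, 1.83 and 2.89 normalised CPM in artemisinin replicates 1, 2 and 3 and 0.668, 0.679 and 0.882 in model replicates 1, 2 and 3, also the reverse of its paralog (log2 2.06 ± 0.50, SE; edgeR adjusted p = 0.0627). Ccnd1, the cyclin D1 gene, had 230.4, 284 and 219.5 normalised CPM in artemisinin replicates 1, 2 and 3 and 354, 366 and 349.8 in model replicates 1, 2 and 3 (log2 −0.54 ± 0.16, SE; edgeR adjusted p = 0.103). Id2 had 94.2, 116 and 127 normalised CPM in artemisinin replicates 1, 2 and 3 and 417, 218 and 205 in model replicates 1, 2 and 3, with model replicate 1 far above the other 2 (log2 −1.32 ± 0.30, SE; edgeR adjusted p = 0.0542). Sox9, a progenitor factor of the lung bud, had 1.37, 0.347 and 0.315 normalised CPM in artemisinin replicates 1, 2 and 3 and 38.9, 2.78 and 1.45 in model replicates 1, 2 and 3. Model replicate 1 held most of its counts, and the groups did not overlap by a small margin (log2 −4.43 ± 1.38, SE; edgeR adjusted p = 0.113).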
